A study of Mus musculus with 8 samples.

Results

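The Rab, Arf and Arf-like (Arl) genes encode the small GTPases that direct membrane traffic. They were taken by symbol: every gene named in the 3′ UTR, CDS, 5′ UTR or intron columns of the deposited table of Argonaute clusters whose symbol is Rab, Arf or Arl followed by its number and, where it has one, its letter. The symbol rule uses no measured value, but a gene is named in the table only where it has a cluster, of at least 10 reads. It gave 61 of 9962 named genes, of which 41 are Rab, 6 are Arf and 14 are Arl genes. They carry 249 of 70142 clusters. A cluster is a stretch of genome, on 1 strand, covered by reads of RNA fragments that came down with Argonaute.

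The data come from HITS-CLIP on mouse forebrain, a method that crosslinks protein to RNA by ultraviolet light, precipitates Argonaute and sequences the fragments it holds. The aim was to find possible miRNA targets, by their seeds, in neurons that express Camk2a. In the Flag-Ago2 group (5 libraries) the mice were Camk2a-cre; Rosa-Stopfl/fl-Flag-Ago2: the Camk2a promoter drives Cre, which lets those cells make tagged Ago2. In the control group (3 libraries) they were Rosa-Stopfl/fl-Flag-Ago2, with that allele and no Cre. Both groups were 8 to 14 weeks old, and each precipitation used less than a whole forebrain. The library titles run from 1 to 3 in each group, with 2a, 2b, 3a and 3b in the Flag-Ago2 group.

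The table gives 1 pooled read count per cluster and 0 columns for single libraries, so no value below has a replicate spread, a control value or a test between groups. Clusters held 1834586 reads in all, with a lowest count of 10 and a median of 18. The 249 member clusters held 7022 reads (0.383%), with a median of 20 and a maximum of 240. Of 13 marker genes of forebrain cell types, 13 had at least 2 exonic clusters: Camk2a of excitatory neurons had 618 exonic reads, against 1105 for the astrocyte gene Slc1a2, 298 for the oligodendrocyte gene Mbp and 33 for the microglial gene Cx3cr1. Whether reads from other cells entered the members' clusters was not tested. No mRNA level was measured, so more Argonaute on an mRNA and more copies of that mRNA cannot be told apart, nor can fewer cells that express a gene and less RNA in each.

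Rab and Arf proteins switch between a GDP-bound state, which is largely soluble, and a GTP-bound state, which sits on a membrane and recruits effectors. Exchange factors (GEFs) load GTP, GTPase-activating proteins (GAPs) end the signal, and each family member marks its own compartment, from the Golgi to endosomes, lysosomes and secretory vesicles. In neurons they are known for synaptic vesicle release, receptor recycling and transport along axons and dendrites. A miRNA guides Argonaute to mRNAs mainly through its seed, the bases near its 5′ end, and 3′ UTRs hold most sites known to lower expression.

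The miRNA sequences below, taken from RefSeq (GRCm38.p6), belong to the families whose sites are printed after them. Capitals mark bases 2 to 8, the seed. miR-128 and miR-27 have shifted versions of 1 motif, as have miR-103/miR-107 and miR-15/miR-16/miR-195.
miR-128-3p: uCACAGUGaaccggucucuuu
miR-27b-3p: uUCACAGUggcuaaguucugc
miR-15a-5p: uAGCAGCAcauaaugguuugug
miR-103-3p: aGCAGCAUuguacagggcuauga
miR-29a-3p: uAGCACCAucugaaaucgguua
miR-101a-3p: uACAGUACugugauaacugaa
miR-181a-5p: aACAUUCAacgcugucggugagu
miR-17-5p: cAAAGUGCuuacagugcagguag

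The miR-128 sites shown next are the 7 whose match covers all of bases 2 to 8 and that lie in the 3′ UTR clusters of Arl8b, Rab36, Rab27a, Arf2, Rab35, Rab6b and Rab14. Capitals mark the match. The bases are transcript sequence from GENCODE M21, read 5′ to 3′ on the gene's strand, with positions on mm10 (GRCm38). In Arl8b, Rab36 and Rab27a the match is followed by A, which makes it an 8-base site.
Arl8b, chr6:108823205-108823230, plus strand: tgactaatggtCACTGTGaaccattt
Rab36, chr10:75053180-75053205, plus strand: acgagaggaatCACTGTGaccatgct
Rab27a, chr9:73096042-73096067, plus strand: tcggattgactCACTGTGagtttggg
Arf2, chr11:103984582-103984607, plus strand: ggtggagttgtCACTGTGtcccgttg
Rab35, chr5:115647102-115647127, plus strand: ttccatgttaaCACTGTGgatgggtt
Rab6b, chr9:103183275-103183300, plus strand: ccagtgtccccCACTGTGgacacccc
Rab14, chr2:35181305-35181330, minus strand: ctccatctttgCACTGTGgcatacct

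The 8-base sites of other families that follow were chosen after their values were seen, to show how far such sites lie from a cluster's centre. Capitals again mark the match to bases 2 to 8.
Rab30, miR-101, chr7:92836249-92836274, plus strand: caggggatcgtGTACTGTaggaatcc
Rab3c, miR-15/miR-16/miR-195, chr13:110058426-110058451, minus strand: atggtcttgctTGCTGCTaggtaaat
Arf2, miR-29, chr11:103984729-103984754, plus strand: actccctgagaTGGTGCTaaactgtg
Rab6b, miR-181, chr9:103183421-103183446, plus strand: ctttcactgaaTGAATGTagggtgaa
Rab8b, miR-17/miR-20/miR-93, chr9:66845110-66845135, minus strand: gttcagtggctGCACTTTattattgt
Rab8b, miR-103/miR-107, chr9:66843957-66843982, minus strand: gtttgcaactgATGCTGCagttccct

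The GTPase genes had 3′ UTR clusters more often than other genes, both among annotated genes and among genes named in the table, while their share with any exonic cluster was above that of annotated genes only. GENCODE annotates 85 protein-coding genes that fit the symbol rule, and 51 of these (60.0%) had an exonic cluster, against 35.7% of all annotated protein-coding genes. A 3′ UTR cluster was found for 41 of the 85 (48.2%), against 21.5% of all. Of the 61 members named in the table, 41 (67.2%) had a 3′ UTR cluster, against 48.8% of all named genes. An exonic cluster of any kind was found for 51 of the 61 (83.6%), close to the 81.4% of all named genes. CDS clusters were found for 26 members (42.6%), against 59.9% of named genes, and 5′ UTR clusters for 3 (4.92%), against 8.1%. Intron clusters only were found for 10 members (16.4%), against 18.6%. The other 24 annotated genes are not analysed here. Genes that the forebrain does not express are part of the annotated background.

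A cluster that touched several regions was counted once, with the 3′ UTR first, then the CDS, the 5′ UTR and the intron. Of the 249 member clusters, 92 were in 3′ UTRs, or 36.95% (95% Wilson interval 31.2 to 43.1), against 16.5% of 55593 clusters of other genes. The CDS held 41 of them, or 16.5% (12.4 to 21.6), against 23.2%, and 113 lay in introns only, or 45.4% (39.3 to 51.6), against 58.6%. The intervals cover counting error only, since reads copied by PCR may not be independent molecules and clusters of 1 gene share their mRNA. In reads the contrast was wider: 49.4% of member reads lay in 3′ UTR clusters, against 19.8% for other genes. The median member 3′ UTR cluster held 29 reads, against 21 for other genes, while the median member CDS cluster held 18, against 21.

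The lengths of these mRNAs differ from those of other genes in the same direction. The GTPases are small proteins, and the members' median CDS had 647 bases, against 1623 for other genes, while their median 3′ UTR had 1951 bases, against 1568. Set per kilobase (kb), members had 0.636 clusters per kb of 3′ UTR, against 0.453, and 0.993 clusters per kb of CDS, against 0.644. Both regions were thus above other genes. The 3′ UTR made up 77.8% of the members' 3′ UTR and CDS bases and held 69.2% of the clusters there. For other genes it made up 49.9% of the bases and held 41.3% of the clusters. The 6 Arf genes had 2.095 clusters per kb of 3′ UTR, the Rab genes 0.537 and the Arl genes 0.573. The Arf value counts 2 clusters of Arf6 that lie past the end of its annotated gene. The Rab value likewise counts 1 cluster of Rab24 that lies past the end of its gene.

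**Figure D1:**
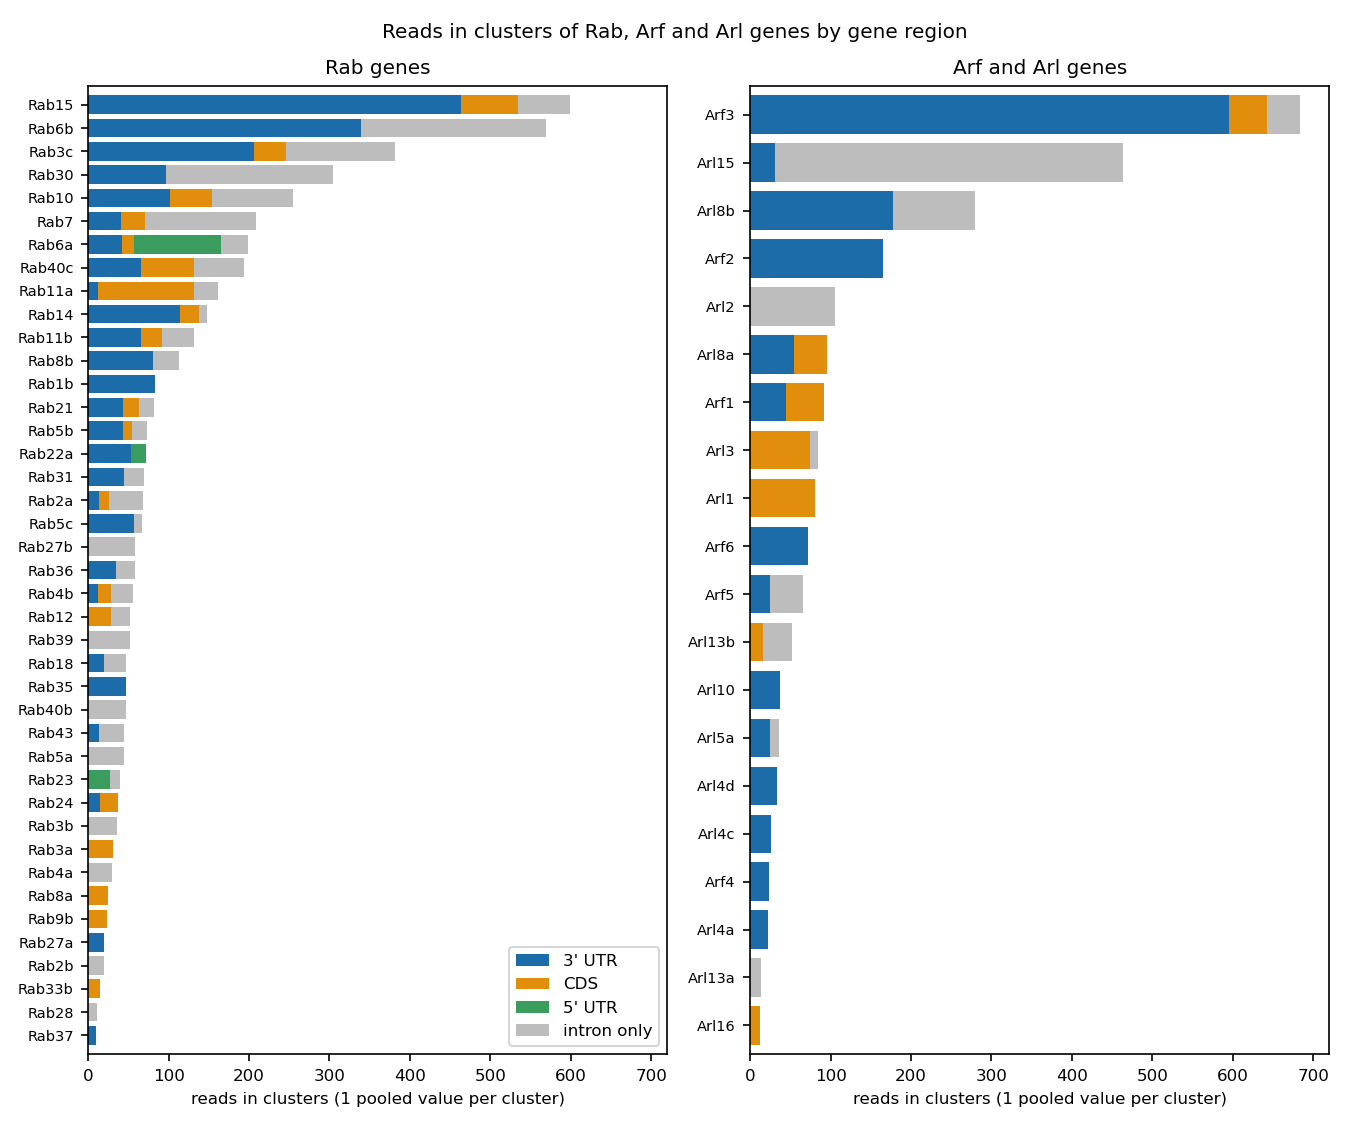
Reads in clusters of each of the 61 genes, stacked by region (3′ UTR, CDS, 5′ UTR, intron only), with Rab genes on the left and Arf and Arl genes on the right. Arf3 (596 reads) and Rab15 (464 reads) had the most 3′ UTR reads, and most reads of Arl15 lay in introns.

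The median member with an exonic cluster had 47 exonic reads, against 48 over all named genes. Per kb of exon, the members' median was 13.9 reads, against 9.795 over all genes. It was 45.5 for the Arf genes, 15.1 for the Arl genes and 13.1 for the Rab genes. The Arf median lies between Arf1 (44.0) and Arf6 (46.9), and the Arf6 clusters lie past the end of its annotated gene. The 6 Arf genes ranged from 6.38 reads per kb in Arf4 to 133 in Arf3, and the Rab genes from 1.88 in Rab37 to 116 in Rab15. An exonic cluster was found for 33 of 41 Rab (80.5%), 6 of 6 Arf and 12 of 14 Arl genes, beside the 81.4% of all named genes.

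**Figure D2:**
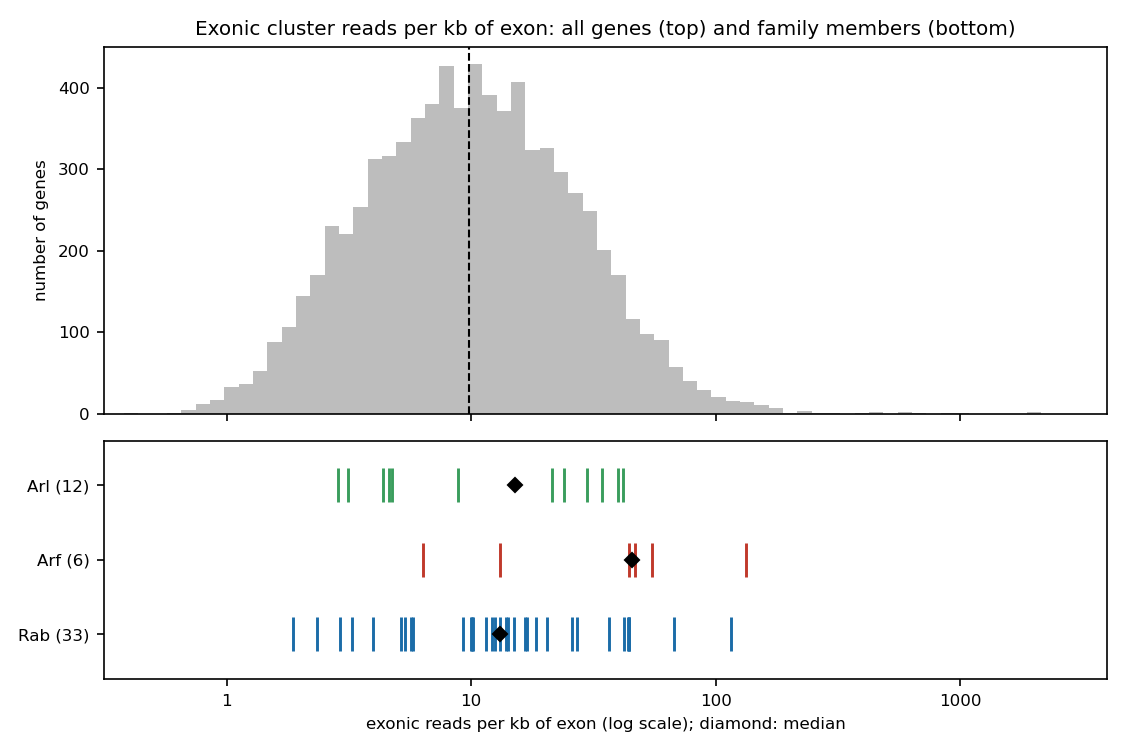
Exonic cluster reads per kb of exon on a log scale, for all protein-coding genes with an exonic cluster (histogram, dashed line at the median of 9.795) and for the members by family (ticks, with a diamond at the median). Arf3 at 133 and Rab15 at 116 lie in the upper tail, and the Arf median of 45.5 lies above the Rab and Arl medians. That Arf median rests in part on Arf6, whose clusters lie past the end of its annotated gene.

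Class I Arf proteins recruit the COPI coat and clathrin adaptors at the Golgi. Of their genes, Arf3 had 643 exonic reads in 11 clusters, the most of any member. Of these clusters, 9 were counted as 3′ UTR, with 596 reads. Its deepest cluster held 221 reads at chr15:98740149-98740595 on the minus strand and is listed in the 3′ UTR, CDS and intron columns, so it crosses the end of the coding sequence. Arf2 had 165 reads (55.0 per kb), all in 2 3′ UTR clusters of 109 and 56 reads. Arf1 had 92 reads (44.0 per kb), split between 3 3′ UTR clusters with 44 reads and 2 CDS clusters with 48.

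The class II genes were low, and the class III gene has no sound value per kb. Arf5 had 25 exonic reads (13.1 per kb) and Arf4 had 23 (6.38 per kb), each in 1 3′ UTR cluster. Arf6, which acts at the plasma membrane in endocytosis and actin remodelling, had 72 reads in 2 clusters listed in the 3′ UTR column. Both clusters, at chr12:69374518-69374678 and chr12:69375262-69375455, lie past the end of the annotated gene at 69373783. Its 46.9 reads per kb thus rests on a length that does not hold these clusters. Arf3 had 133 reads per kb, and none of the other Arf genes exceeded 55.0.

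Among Arf-like genes, the Arl8 pair, which couples lysosomes and synaptic vesicle precursors to kinesin, had the most exonic reads. Arl8b had 178 exonic reads, all in 4 3′ UTR clusters. Arl8a had 96, with 54 in the 3′ UTR and 42 in the CDS. Per kb the pair was close, at 39.7 for Arl8b and 41.8 for Arl8a. Arl1, which recruits golgins to the trans-Golgi, had 81 reads, and Arl3, which releases lipidated cargo in cilia, had 74. All exonic clusters of Arl1 and Arl3 were in the CDS. The Arl4 genes, which recruit cytohesins to the plasma membrane, had 22 (Arl4a), 26 (Arl4c) and 33 reads (Arl4d), all in 3′ UTRs.

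Rab genes of the ER and Golgi were led by the Rab6 pair, which serves retrograde transport through the Golgi. Rab6b, the brain-enriched paralog, had 339 exonic reads (67.4 per kb), all in 9 3′ UTR clusters of which the deepest held 91. Rab6a had 165 (44.3 per kb), but 108 of them lay in 1 5′ UTR cluster at chr7:100607870-100608114 on the plus strand, opposite Mrpl48. Its 3′ UTR held 42 reads. Rab30, a Golgi Rab, had 97 reads in 2 3′ UTR clusters, and Rab1b, which acts from ER to Golgi, had 83 in 2.

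The recycling and plasma membrane class held Rab15, a Rab of early and recycling endosomes. Rab15 had 534 exonic reads (116 per kb) in 7 clusters, with 464 in 5 3′ UTR clusters. Its cluster at chr12:76799423-76799861 on the minus strand held 240 reads, the deepest of all 249, and 44.9% of the gene's exonic reads. Rab10, which serves exocytic traffic, had 154 reads (43.8 per kb). Rab14, of the trans-Golgi and endosomes, had 138 (10.2 per kb of all its annotated exons). Rab11a, the marker of recycling endosomes, had 132 (44.1 per kb), of which 120 were in the CDS. Its deepest CDS cluster, with 76 reads at chr9:64726603-64726789 on the minus strand, overlaps the annotated miRNA gene Gm47308 on the same strand, so reads of that small RNA cannot be told apart from those of the mRNA.

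Presynaptic and secretory Rab genes were uneven. Rab3c, of the synaptic vesicle Rab3 group, had 246 exonic reads (20.4 per kb), with 206 in 6 3′ UTR clusters. Rab3a, known as the main Rab3 of synaptic vesicles, had 31 (13.9 per kb), all in 1 CDS cluster, and Rab3b had an intron cluster only. Rab27a, of secretory granule docking, had 20 reads in 1 3′ UTR cluster, and Rab27b had intron clusters only. Rab37 had 10 reads, the lowest count a cluster can have here.

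The median recycling and plasma membrane Rab gene with an exonic cluster had 86 exonic reads and the median early endosome gene 56. ER and Golgi genes had a median of 35 and presynaptic and secretory genes 25.5. Late endosome and lysosome genes had a median of 47, from 2 genes. Per kb of exon, these medians were 15.8, 12.8, 10.1, 9.54 and 16.5, in the same order. Among early endosome genes, Rab22a had 72 exonic reads and Rab21 had 63. Of the Rab5 genes, which govern fusion of early endosomes, Rab5c had 57 reads (26.0 per kb) and Rab5b had 55 (13.1 per kb). Rab5a had an intron cluster only. Rab7, of late endosomes and lysosomes, had 71 and Rab9b, of transport from late endosomes to the Golgi, had 23. In the remaining class, Rab40c, part of a ubiquitin ligase, had 131 (42.3 per kb) and Rab23, a regulator of hedgehog signalling, had 27, all in its 5′ UTR. The members not described singly (Rab12, Rab18, Rab24, Rab31, Rab33b, Rab35, Rab36, Rab43, Arl5a, Arl10, Arl13b, Arl15 and Arl16) had between 12 and 47 exonic reads.

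Some paralogs had like levels per kb, such as the Arl8 pair and Arf1 and Arf2, and others did not. Rab11a had 44.1 reads per kb and Rab11b 15.0. Rab8b, of transport to the plasma membrane, had 16.9 and Rab8a 5.34. Rab2a had 12.2, Rab4b 14.2 and Rab40c 42.3, whereas Rab2b, Rab4a and Rab40b had no exonic cluster. How reads that fit more than 1 place were handled is not given in the sources used here, so values of paralogs that share sequence are uncertain.

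**Figure D3:**
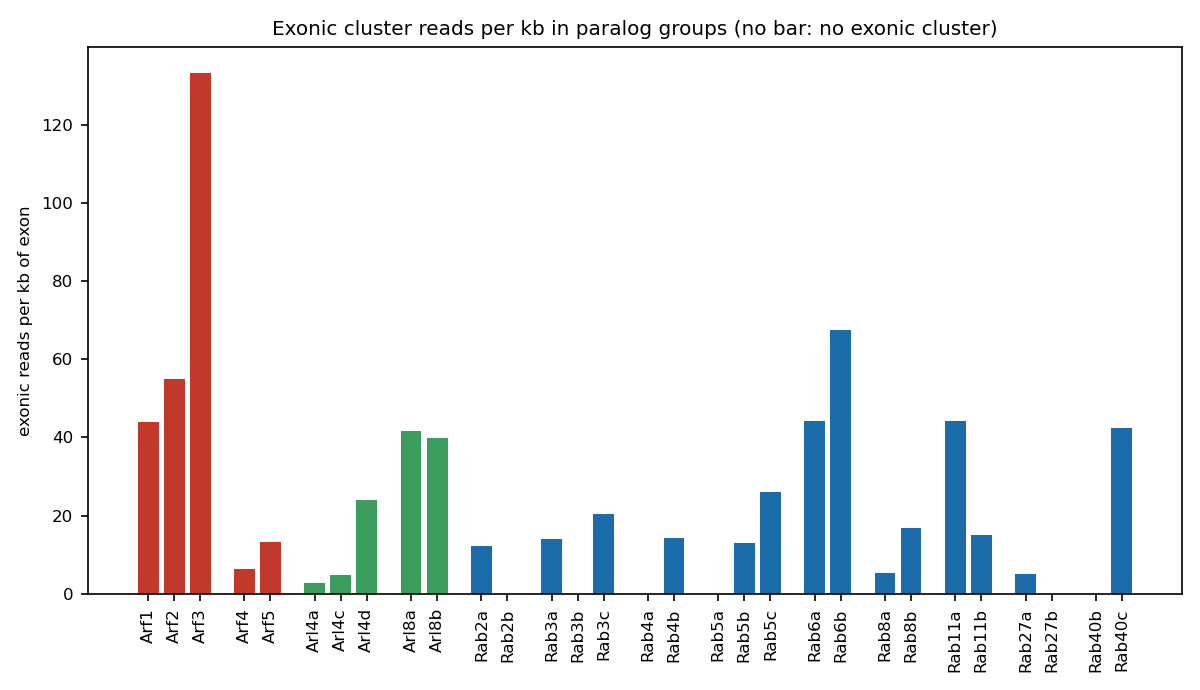
Exonic cluster reads per kb of exon in groups of Rab (blue), Arf (red) and Arl (green) paralogs, 1 bar per gene, with no bar where a gene had no exonic cluster. Arl8a and Arl8b stand at 41.8 and 39.7, while Arf3 stands at 133 against 44.0 for Arf1.

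Within the 3′ UTR, clusters were spread over its length. The centre of 84 of the 92 clusters fell in an annotated 3′ UTR, and 34 were in the part nearest the stop codon, 27 in the middle part and 23 in the last part when the 3′ UTR was cut into 3 equal lengths. The median centre lay 44.6% of the way along. Rab3c had its deeper clusters, of 26, 89 and 53 reads, far into a 3′ UTR of 7628 bases. The deepest cluster of Rab15 was centred 26.3% and that of Arf2 51.7% of the way along, and the 83-read cluster of Rab15 at 74.7%.

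**Figure D4:**
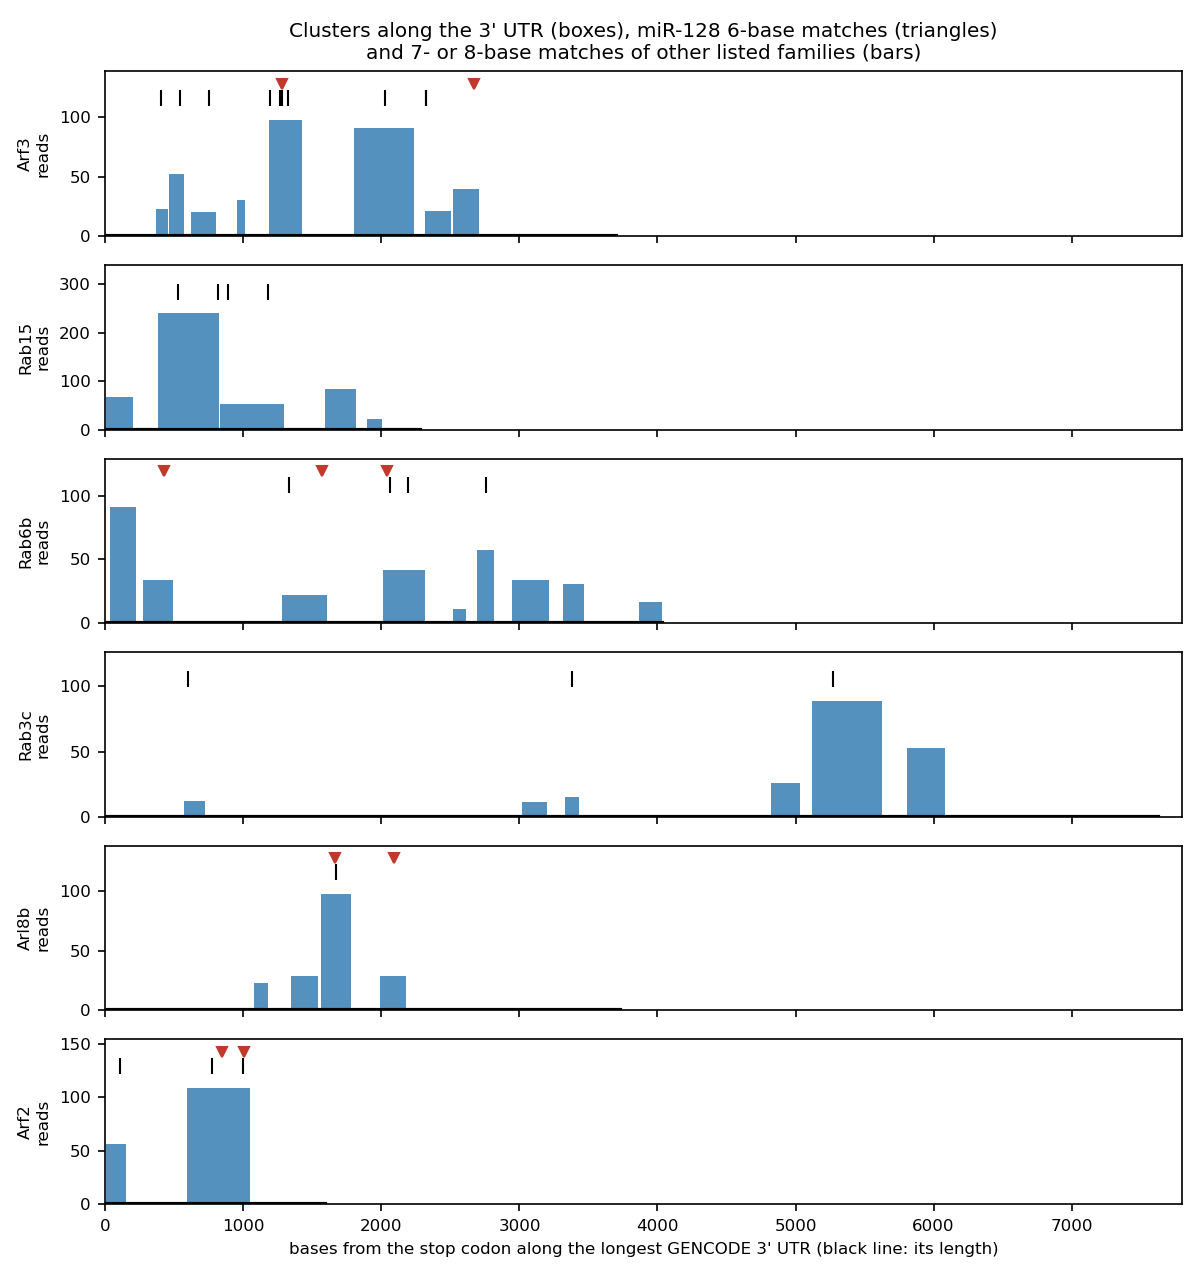
Clusters of Arf3, Rab15, Rab6b, Rab3c, Arl8b and Arf2 along the longest annotated 3′ UTR, by bases from the stop codon, with box height giving the reads. Triangles mark 6-base matches to miR-128 and short bars mark matches of other listed families to bases 2 to 8. Matches are drawn only in clusters that lie in 1 annotated exon, and none are drawn for miR-124. The 17-read cluster of Rab6b, which has a miR-128 match, thus has no triangle. The 221-read cluster of Arf3 has its centre outside the 3′ UTR and is not drawn.

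Seed matches were read from the table's miRNA columns, which count the 6 bases that pair with miRNA bases 2 to 7. Matches of 29 listed miRNA families, whose abundance was not examined here, were counted in the 92 member 3′ UTR clusters. The 12 families given here were chosen after their values were seen. miR-128 had the most clusters, with 18 of 92, or 19.6% (12.75 to 28.8), against 13.6% of all 9284 3′ UTR clusters. miR-124, a miRNA abundant in neurons, had 15, or 16.3% (10.1 to 25.2), against 10.3%. With a match to all of bases 2 to 8 required, miR-128 was left in 8 of 80 clusters (10.0%), against 4.78% of other clusters. The Wilson intervals of all 12 families include the share of all clusters.

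miR-27, which shares bases with miR-128, had 13 clusters (14.1%), against 13.3%, but per kb of cluster it had 0.767 matches in members and 0.871 in other genes. miR-7 had 12 (13.0%), against 7.66%, but in clusters no wider than the median the shares were 4.55% and, in other genes, 4.65%. miR-103/miR-107 had 11 (12.0%), against 9.58%, miR-15/miR-16/miR-195 had 11, against 10.3%, miR-22 had 11, against 7.78%, and miR-29 had 11, against 8.65%. In clusters listed in the 3′ UTR column alone, miR-103/miR-107 and miR-15/miR-16/miR-195 were at 8.75% each, below the 9.06% and 9.68% of other genes. At the other end, let-7/miR-98 had 2 (2.17%), against 4.17%, miR-23 had 3 (3.26%), against 6.64%, and miR-24 had 3, against 6.82%, although with bases 2 to 8 required miR-24 was at 3.75%, against 3.20% of other clusters. The family of miR-30 and miR-384 had 0, with an upper Wilson bound of 4.01%, against 3.52%. No listed family matched 15 of the 92 clusters (16.3%), against 18.2% of other 3′ UTR clusters. The members' clusters were also wider, with a median of 153 bases against 144, and a wider cluster holds more chances of a match.

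**Figure D5:**
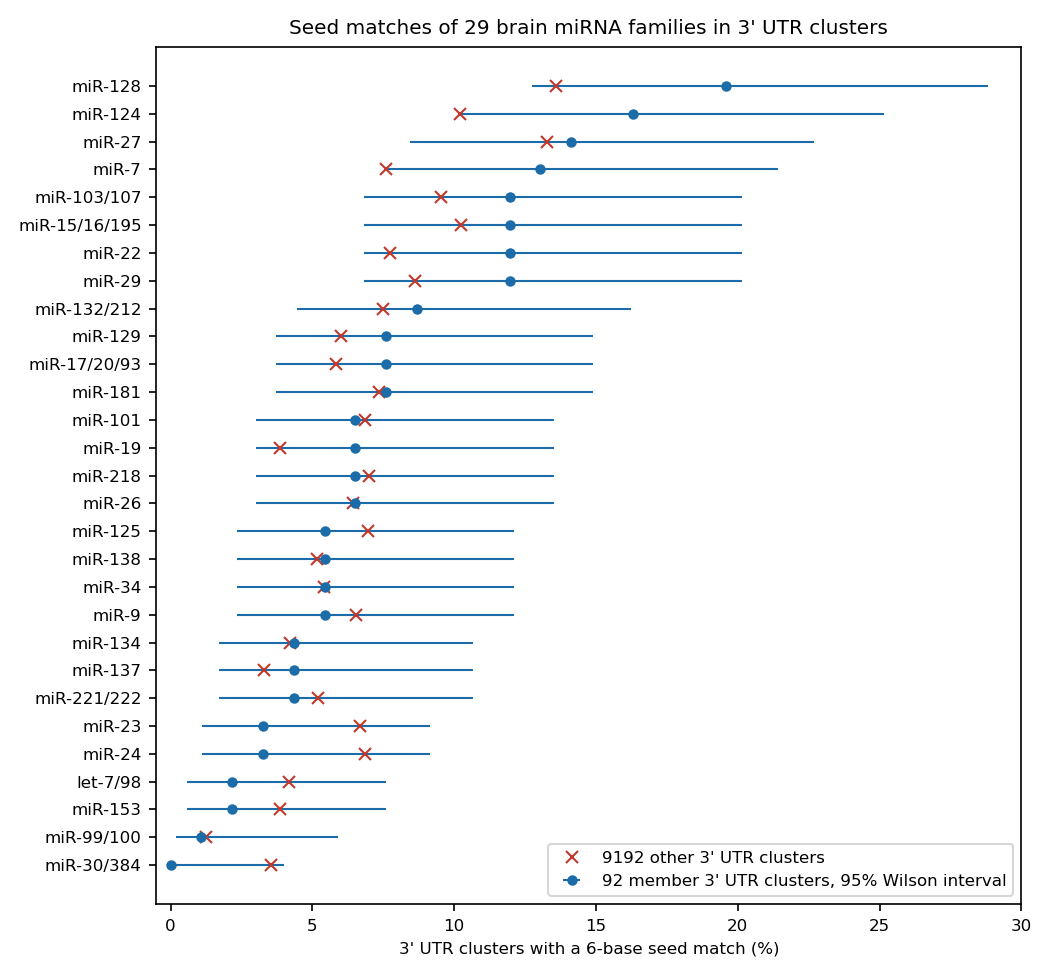
Share of 3′ UTR clusters with a 6-base seed match for each of 29 miRNA families, in the 92 member clusters (points with 95% Wilson intervals) and in 9192 other clusters (crosses). miR-128 is highest in the members at 19.6%, and the miR-30/miR-384 point lies at 0.

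The miR-128 matches came from 13 members: Arf2, Arf3, Arl8a, Arl8b, Rab11a, Rab14, Rab18, Rab21, Rab27a, Rab30, Rab35, Rab36 and Rab6b. Of 17 such sites whose exact place could be read, 8 covered bases 2 to 8, and 3 of these were 8-base sites. The Arl8b site lay 4 bases from the centre of its 97-read cluster, the Rab36 site 4.5 bases from the centre of its 35-read cluster, and the Rab27a site 2.5 bases from the centre of its 20-read cluster. A site in Rab18, an ER and lipid droplet Rab, also lay 2.5 bases from its centre. Those in Arf2, Rab35, Rab14 and Rab6b lay between 26.5 and 120 bases away. The 9 shorter matches included none within 5 bases of a centre. The clusters of the 3 8-base sites had a median width of 111 bases, against 184.5 for those of the 6-base matches. In Arl8b the bases printed above also give an 8-base site for miR-27, and in Rab36 and Rab27a they give miR-27 matches to its bases 2 to 8, so the 2 families cannot be told apart at any of these 3 sites.

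Over 28 of the 29 listed families, 171 sites were placed, in clusters that lie with a margin on each side in 1 annotated exon. The family of miR-124, which matched 15 clusters, is not among these sites. They comprised 89 matches of 6 bases, 23 of 6 bases followed by A, 45 of 7 bases and 14 of 8 bases. Within 25 bases of the cluster centre lay 8 of the 14 8-base sites and 14 of the 45 7-base sites. So did 8 of the 23 matches followed by A and 25 of the 89 6-base matches. The classes differ in cluster width, with a median of 180.5 bases for 8-base sites and 224 for 6-base matches. Overlapping matches count once per family, so the Arl8b stretch is an 8-base site for both miR-128 and miR-27. The miR-101 site of Rab30, printed above, lay at the centre itself in a 48-read cluster, and the miR-15/miR-16/miR-195 site of Rab3c lay 1 base from the centre of a 15-read cluster. The miR-29 site of Arf2 lay 173.5 bases from the centre of its cluster, which is 455 bases wide.

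Arf3 and Rab15, which had the most 3′ UTR reads, also matched the most families. Arf3 matched 18 families over 9 clusters and 1936 bases, Rab15 matched 13 over 1614 bases, and Arf2, Rab14 and Rab6b matched 11 each. The 240-read cluster of Rab15 alone held matches to 8 families (let-7/miR-98, miR-124, miR-132/miR-212, miR-27, miR-29, miR-15/miR-16/miR-195, miR-7 and miR-134) within 439 bases. The 221-read cluster of Arf3 matched 6, among them miR-103/miR-107 and miR-138. Arf4, Rab24 and Rab37 matched none of the listed families in their 3′ UTR clusters. The deepest cluster for miR-128 was the 109-read cluster of Arf2, for miR-22 the 98-read cluster of Arf3, for miR-181 the 97-read cluster of Arl8b, for miR-137 an 89-read cluster of Rab3c and for miR-26 a 57-read cluster of Rab6b.

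Introns held 113 member clusters, at 4.345 per 100 kb of gene, against 4.148 for other genes. Arl15 had 24 of them with 433 reads over a gene of 363 kb, or 6.61 per 100 kb. Rab6b had 11 (230 reads), Rab30 had 10 (207), Arl8b had 5 (101), and Rab10 and Rab7 had 4 each (100 and 137 reads). The deepest intron cluster was in Rab3c, with 120 reads at chr13:110139651-110139801 on the minus strand. The 10 members seen in introns only were Arl13a, Arl2, Rab27b, Rab28, Rab2b, Rab39, Rab3b, Rab40b, Rab4a and Rab5a, of which Arl2, a regulator of tubulin folding, had the most reads (106). A circRNA identifier was attached to 19 member clusters (7.63%), against 15.9% for other genes; Rab6b had 4 of them and Arf3 and Arl15 had 3 each.

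Genes of the proteins that load, unload and read these GTPases were also in Argonaute clusters. Their lists were chosen with earlier results of these data known, and the annotated background includes genes that the forebrain does not express. Of 129 annotated regulators and effectors in 6 lists, 102 (79.1%) had an exonic cluster, against 35.7% of all annotated protein-coding genes. Among those with an exonic cluster, the median reads per kb of exon was below the 9.795 of all genes in 4 of the lists: Rab GEFs (5.51), Rab GAPs (8.29), Rab effectors (8.45) and the GDI list (9.69). It was above in Arf GEFs (11.4) and Arf GAPs (10.9). GDI, escort and prenyltransferase genes, which chaperone and lipidate Rab proteins, had 4 of 6, among them Gdi2 (94 exonic reads). Rab GEFs had 19 of 25, led by Dennd5a (366) and Madd (279), the exchange factor of Rab3. Rab GAPs had 23 of 29, led by Tbc1d30 (219) and Rabgap1 (206). Rab effectors had 26 of 30, led by the active zone gene Rims2 (233) and the endosomal adaptor gene Appl1 (187).

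On the Arf side, 12 of 16 GEF genes and 18 of 23 GAP genes had an exonic cluster. Gbf1, the Golgi exchange factor, had 918 exonic reads in 5 clusters, none of them in its 3′ UTR. Iqsec3, a synaptic Arf exchange factor, had 397, of which 374 were in the 3′ UTR. Agap2 had 819, with 13 in the 3′ UTR, and Agap1 had 292. Gbf1 and Agap2 thus had most of their reads outside 3′ UTR clusters, whereas Arf3 had 596 of 643 in clusters counted as 3′ UTR. Of these, 221 lay in the cluster that crosses the end of its coding sequence.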

How the data were processed

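HITS-CLIP libraries from Flag-Ago2 mice (5) and control mice (3) were aligned with BWA to mm10, per the submitters' processing notes. Neither the BWA version nor how clusters were called, from which libraries, with what use of the controls and of PCR duplicates, is given in the sources used here. In the deposited table stand, per the file headers, 1 read count per cluster (a whole number of at least 10, not normalized), gene columns by region and 1281 miRNA columns. It has 0 columns of single libraries, so the planned comparison of the groups could not be run and depth per library is unknown. No statistical test was made.

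The members and all lists were chosen with earlier results of these data known. Genes were named by rule: the 12 members with most exonic reads, the 5 deepest clusters, the 2 leading members of each role class, the 5 with most 3′ UTR and most intron clusters, intron-only members as a group, the deepest cluster for each miRNA family and the 2 leading genes of each regulator list. Of these, 1 gene is not reported here. Paralogs and 8-base sites beyond it were named after their values were seen.

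Each cluster got 1 region by priority. Exonic reads leave out intron clusters, and lengths are GENCODE M21 exon unions on GRCm38, the same assembly as mm10. Shares carry 95% Wilson intervals. The 6-base definition of the miRNA columns was checked on 8328 3′ UTR clusters in 1 exon, where 233184 of 233184 values for 28 families were equal to recounted matches; the counter was tested on simulated data. Alternatives were a minimum of 20 reads, clusters named in no other region, clusters no wider than the median of 144 bases, a 7-base match, leaving out clusters that name more than 1 gene, counting every overlap, and leaving out each gene's deepest cluster. Python 3.11.15, pandas 2.3.3, numpy 2.4.6, SciPy 1.17.1 and matplotlib 3.10.9 were used.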

Additional observations from a re-analysis of the deposited data

Results flagged for a closer look

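A signal outside the gene columns used above lay opposite Rab27a: a cluster of 16 reads at chr9:73049372-73049564 on the minus strand, antisense to the gene, with no gene named in sense. It was the only antisense cluster opposite a member that names no sense gene. No control value could be set beside it.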

How the results depend on the processing

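No paired analysis was possible because the table holds 1 pooled value per cluster and no library columns. For the same reason leaving out each replicate, a fit with a replicate block and the comparison of the groups were not run. Of 77 alternative values for 20 results, 66 stayed within their counting interval or within 1.5 times the count, and the other 11 moved further. Some of the 66 were bound to stay. Counting every overlap could change no value, because the 3′ UTR came first already and a cluster counted once per gene. Leaving out clusters that name more than 1 gene could not change member counts, because 0 member clusters name another gene. The 3′ UTR share of member clusters rose from 36.95% to 49.6% among clusters of at least 20 reads. The miR-128 share fell from 19.6% to 10.0% when the match had to cover bases 2 to 8, against 4.78% of other clusters, over the 80 clusters in 1 exon. The other 9 moved values were shares of single families. Against other genes, the direction changed for miR-7 in narrow clusters (4.55% and 4.65%), for miR-103/miR-107 (8.75% and 9.06%) and miR-15/miR-16/miR-195 (8.75% and 9.68%) in clusters of the 3′ UTR column alone, for miR-15/miR-16/miR-195 also in narrow clusters (6.82% and 7.53%), and for miR-24 with bases 2 to 8 required (3.75% and 3.20%). The causes were not tested. Without the deepest cluster of each gene, 35 members had an exonic and 29 a 3′ UTR cluster. The match to bases 2 to 8 was not run for miR-124. The depth of 10 or more reads per cluster limits what can be said of members with no exonic cluster.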
